A study of Mus musculus with 93 samples.

Results

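The collagen gene family was followed across the livers of 7 inbred mouse strains on 2 diets. Its members were every gene of the count table whose symbol names a collagen chain, such as Col1a1, and which had 10 or more counts in at least 5 mice. Of 44 collagen symbols in the table, 35 met that rule, out of 19235 genes that met the same minimum. They were grouped as 9 fibrillar, 8 basement membrane, 5 FACIT (fibril-associated) and 13 other collagen genes. The 9 collagen genes below the minimum were Col2a1, Col11a1, Col9a1, Col9a2, Col19a1, Col22a1, Col6a4, Col10a1 and Col28a1, several of them known from cartilage.

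Collagens are extracellular matrix proteins whose chains wind around each other into a helical molecule. Fibrillar collagens pack into the fibres that give scar its strength, basement membrane collagens form sheets under endothelial and epithelial cells, and FACIT collagens sit on the surface of fibres and link them to other matrix. In liver, stellate cells and portal fibroblasts are known as the main makers of fibre collagen, and its build-up is what histology scores as fibrosis.

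Liver RNA of 93 male mice was sequenced, from the domesticated strains C57BL/6J, DBA/2J, A/J and 129S1/SvImJ and the wild-derived strains WSB/EiJ, CAST/EiJ and PWK/PhJ. Every mouse lived at 30 °C, thermoneutrality for mice, from week 6 of life, and from week 7 received either a control diet (CD, 10% of calories from fat) or a western-style diet (WD, 40% of calories from fat). The design asks how liver responds to WD against CD within each strain and whether that response depends on the genetic background. The groups, given as CD and WD mice, held 8 and 8 C57BL/6J, 6 and 7 DBA/2J, 5 and 6 A/J, 7 and 6 129S1/SvImJ, 6 and 6 WSB/EiJ, 7 and 8 CAST/EiJ, and 6 and 7 PWK/PhJ mice. Each mouse gave 1 library from crushed liver, so levels describe the whole tissue, and a change in the number of collagen-making cells cannot be told apart from a change in RNA per cell. No temperature other than 30 °C, no female mice and no untreated baseline were sequenced here.

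Libraries held 40020424 to 49894856 reads on genes, with a median of 46618609, and RNA integrity numbers (RIN) of 7 to 9.7. The labelled tissue was checked with 7 hepatocyte markers (Alb, Apoa1, Ttr, Cps1, Serpina1c, Fgb and Tat), whose summed level was 69856 CPM or more in every mouse. CPM are counts scaled to library size with TMM factors. No marker of any cell type list was at 0 in every mouse. Reads of all strains were mapped to the C57BL/6J genome, and the share of unmapped reads was 1.66% to 3.87% in C57BL/6J but 8.93% to 14.8% in CAST/EiJ. A few mice stood apart from their groups. C57BL/6J CD mouse 2 had the highest level of its group for 22 collagen genes, with a cholangiocyte marker sum of 470 CPM against 66.2 to 227 in its group and a portal fibroblast marker sum of 128 against 22.5 to 37.3. Its recruited macrophage sum was 355.5 against 66.6 to 126.8, and its activated stellate cell or myofibroblast sum 46.6 against 16.9 to 28.0. Its Kupffer cell and sinusoidal endothelial cell sums, 154.7 and 280.4, were the lowest of the group. C57BL/6J WD mouse 3 was highest for 26 collagen genes, with sums of 433 and 136 for the cholangiocyte and portal fibroblast lists. Its recruited macrophage sum was 303.4 against 101.8 to 258.6, and its Kupffer cell and sinusoidal endothelial cell sums were again the lowest. CAST/EiJ WD mouse 3 was highest for 20, with a portal fibroblast sum of 35.7 against 16.9 to 21.9 and a cholangiocyte sum of 65.7, within the range of its group. Its activated stellate cell or myofibroblast sum was 59.0 against 34.2 to 47.0. PWK/PhJ CD mouse 5 was lowest for 14, with a stellate cell sum of 131 against 196 to 245. It was also lowest for the Kupffer cell sum, 34.3 against 138 to 240.5, and the sinusoidal endothelial cell sum, 235.6 against 350.7 to 403.5. The same held for the large-vessel endothelial cell sum, 45.96 against 80.08 to 101.6, and the recruited macrophage sum, 16.75 against 27.09 to 42.21. Its activated stellate cell or myofibroblast and portal fibroblast sums, 12.23 and 24.08, were the highest of the group.

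Fibre collagen genes rose on WD mainly in PWK/PhJ, 129S1/SvImJ and C57BL/6J, where they passed limma-voom at an adjusted p below 0.05. In PWK/PhJ, 20 of 35 collagen genes rose on WD (57.1%, against 15.1% of all 19110 genes tested) and 4 fell (11.4% against 14.5%). In 129S1/SvImJ, 13 rose (37.1% against 14.5%) and 1 fell (2.86% against 13.6%). In C57BL/6J, 15 rose (42.9% against 14.3%) and 5 fell (14.3% against 11.9%). The shares that rose in these strains were above the share of all genes, while the shares that fell were close to it or below it.

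The other strains called few collagen genes. In DBA/2J, 2 rose (5.71% against 10.2% of all genes) and 2 fell (5.71% against 7.77%). In A/J, 3 rose (8.57% against 4.39%) and none was lower by limma (against 4.64%). There, Col13a1 and Col25a1 were lower at an unadjusted p below 0.05, edgeR and DESeq2 called none lower, and a fit of A/J alone called 1. In WSB/EiJ, 1 rose (2.86% against 4.97%) and 1 fell (2.86% against 3.97%). In CAST/EiJ, 2 rose (5.71% against 9.77%) and 4 fell (11.4% against 9.73%). The shares in DBA/2J, WSB/EiJ and CAST/EiJ were near or below those of all genes. With the spread estimated within each strain alone, 10 genes rose in A/J but 8 in C57BL/6J, with 5 in DBA/2J and 4 in WSB/EiJ.

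**Figure D1:**
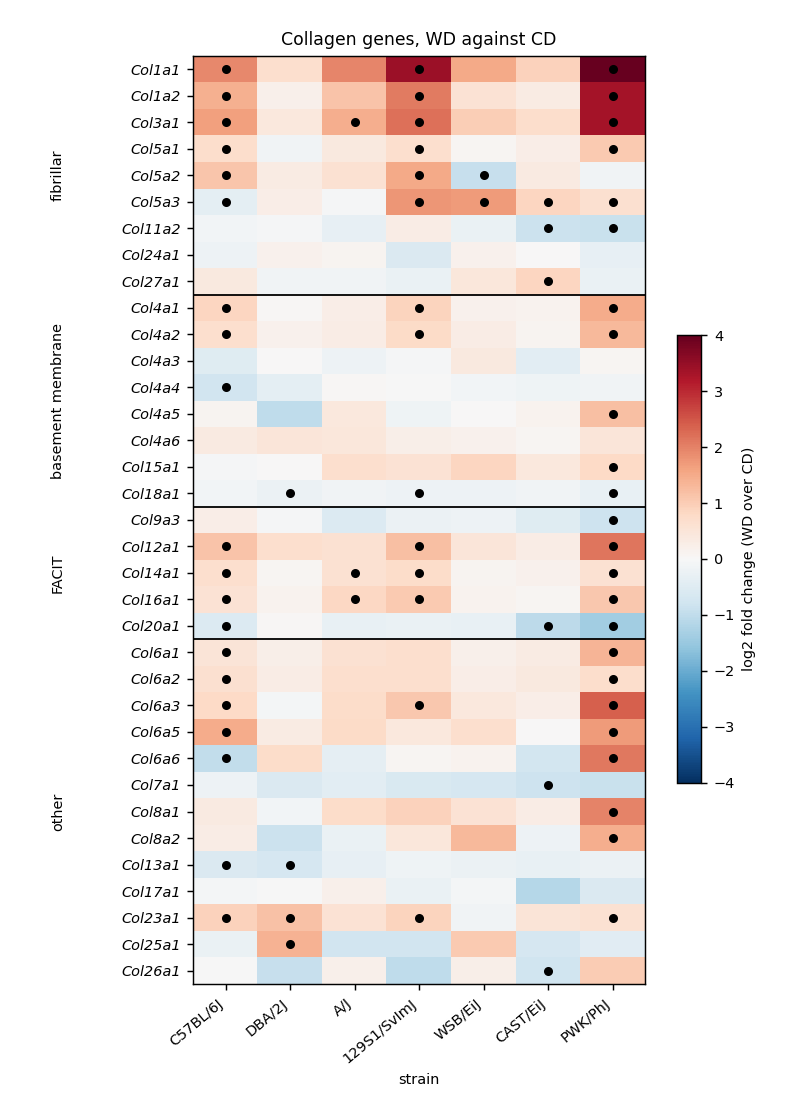
Log2 fold change of WD over CD for the 35 collagen genes (vertical axis, grouped by class) in each of the 7 strains (horizontal axis), on a colour scale from -4 to 4, with a dot where the adjusted p was below 0.05. Col1a1, Col1a2 and Col3a1 are deepest red in PWK/PhJ, and most dots lie in the columns of PWK/PhJ, C57BL/6J and 129S1/SvImJ.

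Over the 35 genes the log2 fold change had a median of 0.70 in PWK/PhJ and 0.45 in 129S1/SvImJ. It was 0.35 for C57BL/6J and 0.31 for A/J, and 0.19 for WSB/EiJ, 0.12 for CAST/EiJ and 0.05 for DBA/2J. The median of all genes lay between -0.01 and 0.02. No test compared the classes. In 129S1/SvImJ, 6 of 9 fibrillar genes rose, with a median of 1.52, against 2 of 13 in the mixed class with a median of 0.44. In PWK/PhJ, 5 of 9 fibrillar, 4 of 8 basement membrane, 3 of 5 FACIT and 8 of 13 other collagen genes rose. In all, 31 of the 35 genes passed the test in at least 1 strain, 23 of them upward and 11 downward in some strain, and 12 rose in both PWK/PhJ and 129S1/SvImJ, of which 11 also rose in C57BL/6J. The matching shares of all genes were not counted, so these counts over several strains do not set collagen genes apart. Col24a1, Col4a3, Col4a6 and Col17a1 passed the test in no strain. Mice of each strain came in 2 or 3 cohorts that held both diets, and every collagen gene that passed the test had the same sign in each cohort of its strain. These genes were called from the same mice, so that agreement is largely built in and is no separate repeat.

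**Figure D2:**
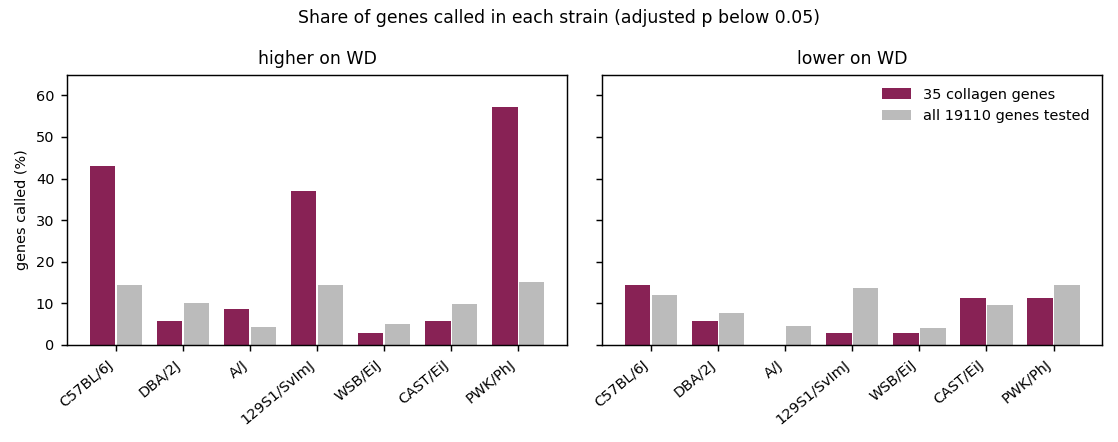
Share of the 35 collagen genes (dark bars) and of all 19110 genes tested (grey bars) with an adjusted p below 0.05 in each strain, higher on WD on the left and lower on WD on the right, in percent. The dark bar stands above the grey bar for higher on WD in C57BL/6J (42.9% against 14.3%), 129S1/SvImJ (37.1% against 14.5%), PWK/PhJ (57.1% against 15.1%) and A/J (8.57% against 4.39%).

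Type I and type III collagen genes gave the largest changes. Col1a1 (chr11:94936224-94953042, plus strand, GRCm38, GENCODE) and Col1a2 (chr6:4504814-4541544, plus strand) encode the chains of type I collagen, the main protein of scar. Col3a1 (chr1:45311538-45349706, plus strand) encodes type III collagen, which forms thinner fibres alongside it. In PWK/PhJ, the lowest, median and highest Col1a1 levels were 3.00, 3.50 and 4.59 CPM on CD and 18.5, 70.0 and 117 CPM on WD. Every WD mouse stood above every CD mouse, and the fitted change was 16.1-fold (log2 fold change 4.01, SE 0.54, adjusted p = 5.23e-09). In 129S1/SvImJ, the levels went from 1.56, 2.17 and 3.85 CPM to 14.6, 25.1 and 37.8 CPM, again without overlap (log2 fold change 3.44, SE 0.60, adjusted p = 5.29e-06).

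C57BL/6J mice varied widely in Col1a1. Their CD levels were 6.50, 8.00 and 89.4 CPM and their WD levels 14.0, 54.1 and 164 CPM (log2 fold change 1.93, SE 0.35, adjusted p = 1.28e-05). The groups overlapped, since CD mouse 2 stood at 89.4 CPM, above all but 2 of the WD mice, and CD mice 4 and 6, at 20.7 and 16.7 CPM, stood above the lowest WD mouse. The highest WD value was that of mouse 3. The log2 fold change was 1.69 without WD mouse 3, 2.36 without CD mouse 2 and 1.68 (adjusted p = 1.17e-04) with cohort as a term. It was 2.36 (adjusted p = 3.12e-09) without CD mouse 2 and CAST/EiJ WD mouse 3, the fit called below without both mice that stood apart. That fit kept C57BL/6J WD mouse 3, and no fit left out CD mouse 2 and WD mouse 3 of C57BL/6J together. Over the alternatives the log2 fold change ran from 1.63 to 2.39, and the adjusted p from 3.12e-09 to 0.0335. Within each C57BL/6J cohort alone the change was 2.16 and 1.06 on the log2 scale.

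**Figure D3:**
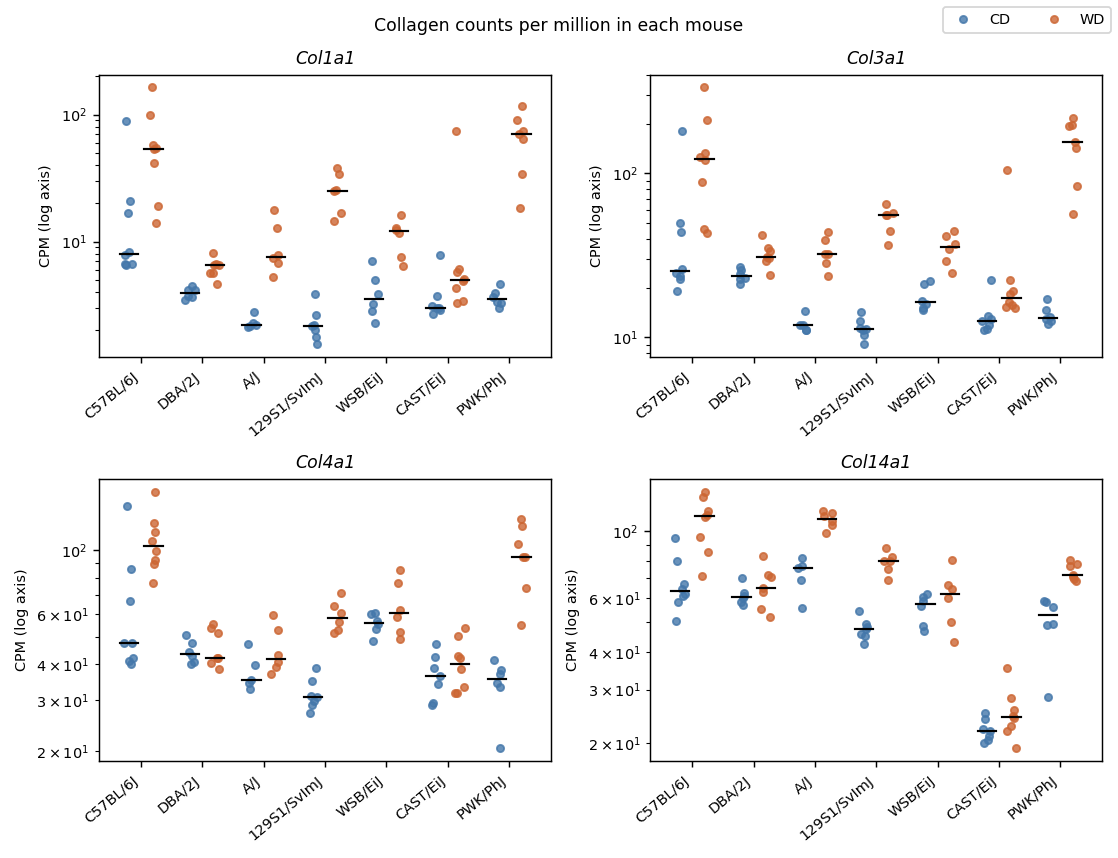
CPM (log axis) of Col1a1, Col3a1, Col4a1 and Col14a1 in each mouse, by strain, with CD in blue, WD in orange and a black line at the median of the group. In PWK/PhJ and 129S1/SvImJ every orange point lies above every blue point for all 4 genes, while in C57BL/6J CD mouse 2 and 1 or 2 further blue points lie among the orange points for each gene.

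In the other strains the type I genes did not pass the test, although some groups did not overlap. The 5 A/J mice on CD had Col1a1 levels of 2.77, 2.15, 2.11, 2.29 and 2.20 CPM, and the 6 on WD had 5.23, 7.60 and 17.7 CPM as lowest, median and highest. The A/J groups were apart, with a log2 fold change of 1.94 (SE 0.72, adjusted p = 0.075). With a spread estimated from A/J alone the change was 1.95 (adjusted p = 0.00486), and the adjusted p ranged from 0.00292 to 0.187 over the alternatives. Col1a1 passed in 5 of 10 of them. Col1a2 had a log2 fold change of 1.13 in A/J and passed in 6 of 10 alternatives, edgeR and DESeq2 among them. Its adjusted p ranged from 0.00164 to 0.178. In DBA/2J, Col1a1 went from 3.45, 3.92 and 4.43 to 4.61, 6.51 and 8.18 CPM, groups apart, with a log2 fold change of 0.66 (SE 0.60, adjusted p = 0.514), and the adjusted p ranged from 0.00189 to 0.721 over the alternatives. In WSB/EiJ it went from 2.28, 3.54 and 6.96 to 6.36, 12.0 and 16.3 CPM with 1.52 (SE 0.61, adjusted p = 0.11). The WSB/EiJ groups overlapped slightly, and that adjusted p ranged from 0.00676 to 0.317 over the alternatives. In CAST/EiJ the levels were 2.67, 2.99 and 7.78 CPM on CD and 3.26, 4.99 and 74.8 CPM on WD (log2 fold change 0.92, SE 0.60, adjusted p = 0.307), where the highest value was that of WD mouse 3. Leaving out both mice that stood apart moved this log2 fold change to 0.39 (adjusted p = 0.677), with a range of 7.55e-04 to 0.677 over the alternatives.

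Col1a2 and Col3a1 also changed most in PWK/PhJ and next in 129S1/SvImJ. Col1a2 rose in PWK/PhJ from 3.94, 4.51 and 5.51 to 16.4, 51.2 and 88.4 CPM (log2 fold change 3.32, SE 0.40, adjusted p = 2.32e-10), in 129S1/SvImJ with a log2 fold change of 2.07 (SE 0.35, adjusted p = 3.90e-06) and in C57BL/6J with 1.42 (SE 0.27, adjusted p = 2.36e-05). Col3a1 rose in 4 strains. In PWK/PhJ it went from 12.1, 13.0 and 17.0 to 56.1, 156 and 218 CPM (log2 fold change 3.32, SE 0.34, adjusted p = 1.01e-12), with every WD mouse above every CD mouse. In 129S1/SvImJ it went from 9.08, 11.3 and 14.1 to 36.4, 55.7 and 64.7 CPM (log2 fold change 2.19, SE 0.35, adjusted p = 8.32e-07), also without overlap. In C57BL/6J the log2 fold change was 1.65 (SE 0.28, adjusted p = 3.91e-06), with overlapping groups. In A/J the CD mice had 14.4, 11.1, 11.1, 11.8 and 11.8 CPM and the WD mice 23.7, 32.2 and 43.6 CPM as lowest, median and highest, with groups apart (log2 fold change 1.44, SE 0.39, adjusted p = 0.00931). That A/J call was lost when genes with almost no reads were kept in the test, and its adjusted p ranged from 3.78e-05 to 0.14 over the alternatives. In WSB/EiJ, Col3a1 did not pass by limma, at a log2 fold change of 0.99, but did in 5 of 10 alternatives. There its adjusted p ranged from 0.00199 to 0.391.

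The promoters of Col1a2 and Col3a1 are shown because both genes changed about as much in PWK/PhJ. Each window covers 250 bases before to 50 bases after the RefSeq start (GRCm38.p6), which for Col1a2 lies inside the longer GENCODE gene, 5′ to 3′ on the strand of the gene. Capitals mark matches on either strand to 3 common promoter motifs, the CCAAT box, the TATA box as TATAAA and the GC box as GGGCGG, so that a match on the other strand shows as the reverse complement. Col1a2 is at chr6:4505368-4505667, plus strand, and Col3a1 at chr1:45311288-45311587, plus strand.
Col1a2: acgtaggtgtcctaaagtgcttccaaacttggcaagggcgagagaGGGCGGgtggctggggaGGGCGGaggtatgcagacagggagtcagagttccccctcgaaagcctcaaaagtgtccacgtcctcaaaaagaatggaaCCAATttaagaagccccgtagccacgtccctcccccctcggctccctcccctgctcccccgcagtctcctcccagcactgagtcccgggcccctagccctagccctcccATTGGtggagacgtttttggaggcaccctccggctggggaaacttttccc
Col3a1: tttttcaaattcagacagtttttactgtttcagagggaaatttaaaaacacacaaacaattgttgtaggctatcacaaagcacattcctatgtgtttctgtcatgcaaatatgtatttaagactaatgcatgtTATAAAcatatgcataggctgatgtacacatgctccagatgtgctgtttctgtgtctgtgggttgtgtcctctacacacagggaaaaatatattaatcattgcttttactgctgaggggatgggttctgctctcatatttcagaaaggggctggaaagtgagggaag
The Col1a2 window holds 2 matches to CCAAT and 2 to the GC box and is 61% G or C, while that of Col3a1 holds 1 match to the TATA box and is 37.7% G or C. These motifs are common, since CCAAT occurs in 37.4% of 32851 RefSeq promoter windows and in 10 of the 28 collagen genes with a window (35.7%), and the TATA box in 13.6% and in 4 of 28 (14.3%). The GC box occurs in 35.7% of all windows and in 19 of 28 (67.9%).

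Type V chains join type I fibrils and are known to limit their width. Col5a1 rose in 129S1/SvImJ and C57BL/6J, with log2 fold changes of 0.68 and 0.70, and in PWK/PhJ. There it went from 7.56, 9.66 and 10.3 to 13.6, 19.5 and 24.3 CPM (log2 fold change 1.03, SE 0.16, adjusted p = 3.74e-07), a smaller change than that of Col1a1 in the same mice. Col5a2 (chr1:45374321-45503282, minus strand) rose in 129S1/SvImJ from 1.56, 2.19 and 2.80 to 4.83, 6.06 and 8.40 CPM (log2 fold change 1.52, SE 0.52, adjusted p = 0.0196), with groups apart but the call lost when genes with almost no reads were kept in the test (adjusted p = 0.135), and in C57BL/6J with a log2 fold change of 1.12 (SE 0.35, adjusted p = 0.0121). The C57BL/6J call was lost in 3 of 10 alternatives and without WD mouse 3, where the log2 fold change was 0.86. Col5a2 fell in WSB/EiJ from 102, 268 and 383 to 42.0, 166 and 229 CPM (log2 fold change -0.91, SE 0.30, adjusted p = 0.037). The WSB/EiJ groups overlapped, and the call was lost with edgeR, with DESeq2, in a fit of WSB/EiJ alone and without any 1 of 7 WSB/EiJ mice.

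Col5a3, another type V chain, moved in opposite directions. It rose in 129S1/SvImJ from 3.71, 8.86 and 9.45 to 19.0, 27.3 and 30.4 CPM (log2 fold change 1.76, SE 0.19, adjusted p = 2.32e-11), with every WD mouse above every CD mouse. In WSB/EiJ it rose from 1.63, 2.92 and 4.54 to 5.14, 9.89 and 15.8 CPM (log2 fold change 1.70, SE 0.28, adjusted p = 8.19e-06), also apart. It rose in CAST/EiJ and PWK/PhJ too, where the groups overlapped, with log2 fold changes of 0.85 (SE 0.25, adjusted p = 0.00989) and 0.64 (SE 0.18, adjusted p = 0.00469). In C57BL/6J it fell from 36.2, 44.8 and 68.1 to 31.7, 37.1 and 41.0 CPM (log2 fold change -0.40, SE 0.14, adjusted p = 0.0265), a call lost with edgeR and DESeq2 and without any 1 of 4 mice. The strains in which it rose were those with low levels on CD, and the highest median on CD, in DBA/2J, went with a log2 fold change of 0.27 (SE 0.15, adjusted p = 0.253).

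The remaining fibrillar genes are best known from cartilage and bone. Col11a2 fell in CAST/EiJ from 4.54, 8.28 and 13.1 to 3.47, 4.17 and 6.81 CPM (log2 fold change -0.85, SE 0.16, adjusted p = 4.23e-05) and in PWK/PhJ from 3.58, 5.33 and 7.73 to 2.31, 2.71 and 3.58 CPM (log2 fold change -0.88, SE 0.19, adjusted p = 1.27e-04). The PWK/PhJ groups were just apart and the CAST/EiJ groups overlapped. Col27a1 rose in CAST/EiJ from 47.2, 69.0 and 118 to 92.3, 143 and 155 CPM (log2 fold change 0.86, SE 0.20, adjusted p = 8.09e-04), and Col24a1 stayed between 0.0672 and 0.766 CPM in every mouse.

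Among basement membrane collagens, Col4a1 and Col4a2 rose together in PWK/PhJ, 129S1/SvImJ and C57BL/6J. They encode the chains found in nearly all basement membranes and lie head to head on chromosome 8, with gene ends that overlap by 22 bases. Col4a1 went in PWK/PhJ from 20.4, 35.7 and 41.6 to 54.7, 94.8 and 129 CPM (log2 fold change 1.47, SE 0.18, adjusted p = 1.98e-10) and in 129S1/SvImJ from 27.1, 30.9 and 38.8 to 51.3, 58.1 and 71.1 CPM (log2 fold change 0.91, SE 0.18, adjusted p = 4.23e-05). Groups were apart in both. Col4a2 had log2 fold changes of 1.28 (SE 0.18, adjusted p = 1.17e-08) in PWK/PhJ, 0.77 (SE 0.18, adjusted p = 4.79e-04) in 129S1/SvImJ and 0.66 (SE 0.15, adjusted p = 4.73e-04) in C57BL/6J, and Col4a1 had 0.87 (SE 0.16, adjusted p = 1.22e-05) in C57BL/6J. The C57BL/6J call of Col4a2 was lost in a fit of that strain alone (adjusted p = 0.064). In DBA/2J, A/J, WSB/EiJ and CAST/EiJ the log2 fold changes of both genes lay between 0.05 and 0.31, with none past the test.

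The shared promoter of this pair is shown because the genes run from it in opposite directions. Windows and capitals are as above, with Col4a1 at chr8:11312777-11313076, minus strand and Col4a2 at chr8:11312555-11312854, plus strand.
Col4a1: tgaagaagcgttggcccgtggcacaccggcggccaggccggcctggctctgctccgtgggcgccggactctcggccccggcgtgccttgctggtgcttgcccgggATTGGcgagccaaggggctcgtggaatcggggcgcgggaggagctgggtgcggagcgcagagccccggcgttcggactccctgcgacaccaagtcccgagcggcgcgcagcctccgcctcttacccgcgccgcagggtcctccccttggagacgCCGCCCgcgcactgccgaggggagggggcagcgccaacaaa
Col4a2: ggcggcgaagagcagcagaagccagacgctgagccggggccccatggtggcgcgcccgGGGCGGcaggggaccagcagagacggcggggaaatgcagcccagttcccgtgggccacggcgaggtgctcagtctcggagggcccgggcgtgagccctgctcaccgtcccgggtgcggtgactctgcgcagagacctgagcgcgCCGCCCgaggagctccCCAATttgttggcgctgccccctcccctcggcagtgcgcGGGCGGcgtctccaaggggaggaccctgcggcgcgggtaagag
The windows share 78 bases, chr8:11312777-11312854, read as reverse complements of each other. The Col4a1 window is 74% and that of Col4a2 73.7% G or C, and neither holds a match to the TATA box.

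The other chains of type IV collagen, known from kidney and other specialised basement membranes, were low. Col4a5 rose in PWK/PhJ from 0.793, 1.00 and 1.18 to 1.33, 2.41 and 3.92 CPM (log2 fold change 1.20, SE 0.34, adjusted p = 0.00382), with groups apart. In DBA/2J it went the other way, from 1.03, 1.26 and 1.44 to 0.429, 0.607 and 0.889 CPM, with groups apart and a log2 fold change of -1.03 (SE 0.40, adjusted p = 0.0629). That change passed in 6 of 10 alternatives, edgeR and DESeq2 among them, with an adjusted p of 4.68e-04 to 0.0883. Its neighbour Col4a6, with which it lies head to head on chromosome X at 1308 bases, reached at most 2.42 CPM, in C57BL/6J CD mouse 2. Col4a4 fell in C57BL/6J from 0.644, 0.857 and 3.53 to 0.227, 0.447 and 3.12 CPM (log2 fold change -0.76, SE 0.26, adjusted p = 0.0236), with overlap, and the call was lost in 4 of 10 alternatives, edgeR and DESeq2 among them, and without CD mouse 2 or any 1 of 4 WD mice. Its head-to-head neighbour Col4a3, 71 bases away, had a log2 fold change of -0.48 (SE 0.23, adjusted p = 0.118) there. An antisense gene, C430014B12Rik, covers 5.65% of the exon bases of Col4a3, and whether the counting separated strands is not given in the sources used here.

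Col18a1, a basement membrane collagen that hepatocytes are known to make and whose end is released as endostatin, had the highest level per length of the family, at a mean of 148 RPKM (CPM per kb of exon), against 9.07 RPKM for the next, Col14a1. It fell in PWK/PhJ from 1074, 1169 and 1299 to 871, 949 and 1026 CPM (log2 fold change -0.31, SE 0.08, adjusted p = 0.00149), with every WD mouse below every CD mouse. It fell in DBA/2J and 129S1/SvImJ too, with log2 fold changes of -0.22 (SE 0.08, adjusted p = 0.0378) and -0.20 (SE 0.08, adjusted p = 0.0459), where the groups overlapped. The 129S1/SvImJ call was lost with upper-quartile normalization, at a log2 fold change of -0.14, and with 10 counts required in every mouse, at -0.17, and the DBA/2J call in a fit of DBA/2J alone. Each of these calls was also lost without any 1 of 8 mice of its strain. The median hepatocyte marker sum was lower on WD in every strain, and in PWK/PhJ the sum went from 111407, 125068 and 137131 to 69856, 75711 and 94831 CPM, and its part in this result was not tested. Col15a1, a collagen of vessel basement membranes, rose in PWK/PhJ from 2.87, 4.94 and 9.24 to 4.14, 9.43 and 13.1 CPM (log2 fold change 0.80, SE 0.30, adjusted p = 0.0332), a call lost in a fit of PWK/PhJ alone and without any 1 of 8 PWK/PhJ mice.

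Of the 5 FACIT genes, Col12a1, Col14a1 and Col16a1 rose and Col20a1 and Col9a3 fell in PWK/PhJ. Col12a1, which coats type I fibres, rose in PWK/PhJ from 0.667, 0.719 and 1.23 to 2.15, 3.48 and 5.42 CPM (log2 fold change 2.14, SE 0.34, adjusted p = 3.30e-07), in 129S1/SvImJ with a log2 fold change of 1.20 (SE 0.30, adjusted p = 0.00138) and in C57BL/6J with 1.14 (SE 0.21, adjusted p = 1.11e-05). Groups were apart in PWK/PhJ and 129S1/SvImJ. Col14a1, another coat of type I fibres, rose in 4 strains, including A/J, where the type I genes passed only in some of the alternatives. In A/J the 5 CD mice had 75.8, 55.6, 69.0, 81.6 and 76.7 CPM and the WD mice 98.4, 110 and 117 CPM as lowest, median and highest (log2 fold change 0.62, SE 0.13, adjusted p = 9.63e-04). Col14a1 had log2 fold changes of 0.67 in C57BL/6J, 0.73 in 129S1/SvImJ and 0.59 in PWK/PhJ, and groups were apart in A/J, 129S1/SvImJ and PWK/PhJ.

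Col16a1, a minor fibre-associated collagen, also rose in 4 strains. In A/J the CD mice had 1.66, 1.03, 1.61, 1.62 and 1.60 CPM and the WD mice 2.12, 2.58 and 3.93 CPM as lowest, median and highest (log2 fold change 0.82, SE 0.25, adjusted p = 0.025), with groups apart, and the call was lost without CD mouse 2 or WD mouse 2. In PWK/PhJ it went from 2.24, 2.79 and 3.30 to 4.31, 6.14 and 7.20 CPM (log2 fold change 1.09, SE 0.18, adjusted p = 7.56e-07), and its log2 fold change was 1.03 in 129S1/SvImJ and 0.59 in C57BL/6J, a call lost in a fit of C57BL/6J alone (adjusted p = 0.128). Col20a1 fell in PWK/PhJ from 2.37, 2.80 and 4.96 to 0.989, 1.16 and 1.97 CPM (log2 fold change -1.39, SE 0.24, adjusted p = 3.27e-06) and in CAST/EiJ from 2.10, 2.97 and 4.47 to 0.905, 1.55 and 1.89 CPM (log2 fold change -1.05, SE 0.23, adjusted p = 5.45e-04), with groups apart in both. In C57BL/6J it fell with a log2 fold change of -0.56 (SE 0.21, adjusted p = 0.0415), a call lost in 3 of the 10 alternatives and without any 1 of 9 mice. Col9a3, a cartilage collagen chain of which an antisense gene, Tcfl5, covers 6.07% of the exon bases, fell in PWK/PhJ from 0.551, 0.757 and 0.993 to 0.322, 0.399 and 0.609 CPM (log2 fold change -0.81, SE 0.26, adjusted p = 0.0131).

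**Figure D4:**
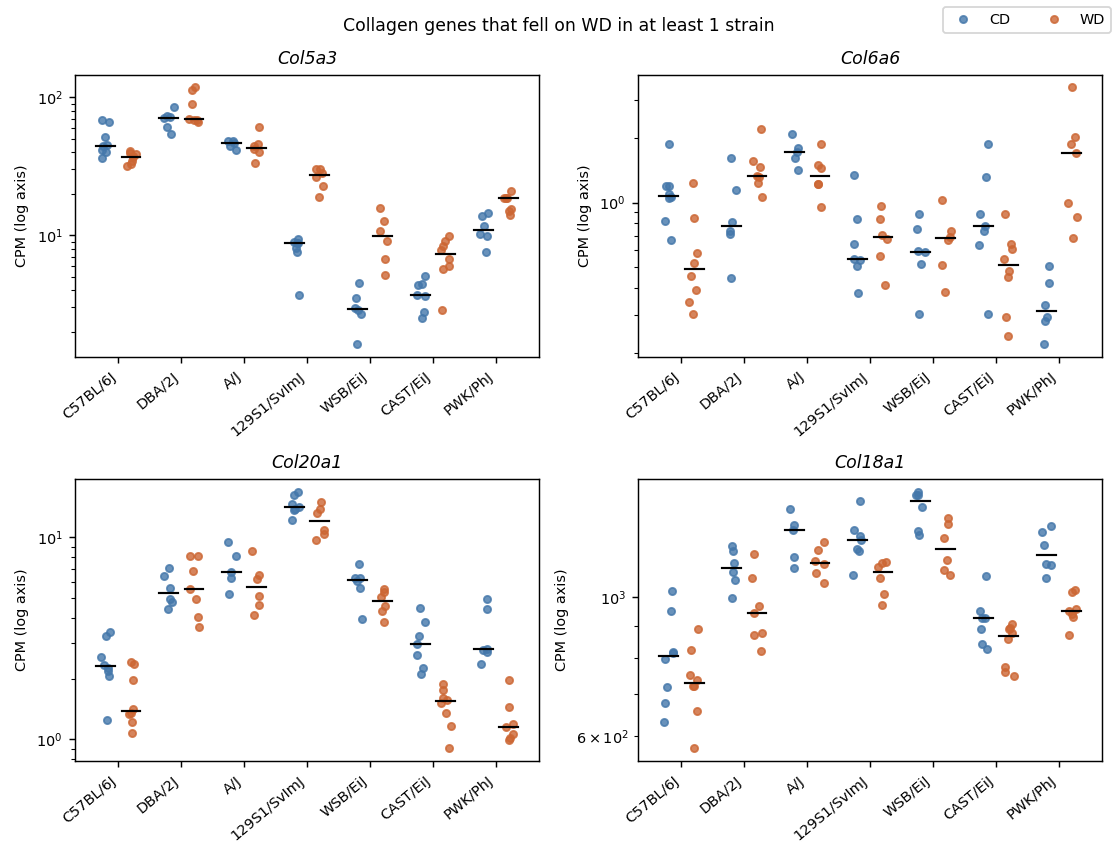
CPM (log axis) of Col5a3, Col6a6, Col20a1 and Col18a1 in each mouse, by strain, with CD in blue, WD in orange and a black line at the median of the group. Col6a6 lies higher on WD in PWK/PhJ (medians 0.315 and 1.70 CPM) and lower on WD in C57BL/6J (medians 1.08 and 0.489 CPM), and Col20a1 lies lower on WD in PWK/PhJ and CAST/EiJ.

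Type VI collagen forms beaded filaments between cells and fibres. Its chains Col6a1, Col6a2 and Col6a3 rose in PWK/PhJ and C57BL/6J, and Col6a3 also in 129S1/SvImJ. Col6a1 and Col6a2 did not pass in 129S1/SvImJ by limma, but did in 6 and 3 of 10 alternatives. Their log2 fold changes there ran from 0.64 to 0.73 and from 0.66 to 0.75 over the alternatives. Neither passed the F test of unequal diet effects over the 7 strains (adjusted p = 0.0754 and 0.867). Col6a3 changed most, in PWK/PhJ from 2.94, 3.72 and 5.59 to 7.29, 24.0 and 37.4 CPM (log2 fold change 2.38, SE 0.35, adjusted p = 1.05e-07), with groups apart, and in 129S1/SvImJ with a log2 fold change of 1.09 (SE 0.36, adjusted p = 0.0159). In PWK/PhJ, Col6a1 had a log2 fold change of 1.35 (SE 0.26, adjusted p = 3.25e-05) and Col6a2, its neighbour on chromosome 10, had 0.70 (SE 0.24, adjusted p = 0.017). In C57BL/6J the values were 0.53 (SE 0.20, adjusted p = 0.0437), 0.64 (SE 0.23, adjusted p = 0.0264) and 0.81 (SE 0.23, adjusted p = 0.00519). In C57BL/6J the Col6a1 call held in only 4 of 10 alternatives and was lost without any 1 of 12 mice, and that of Col6a2 held in 6 of 10 and was lost without any 1 of 6 mice, WD mouse 3 among them for both. Neither passed with edgeR, DESeq2, cohort as a term or a fit of C57BL/6J alone. The Col6a3 call was lost in the fit of C57BL/6J alone, and the PWK/PhJ call of Col6a2 with edgeR (adjusted p = 0.0558).

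Col6a5 and Col6a6 encode chains that can take the place of the Col6a3 chain and are neighbours on chromosome 9. Col6a5 rose in PWK/PhJ from 0.724, 0.835 and 1.23 to 0.901, 3.57 and 6.07 CPM (log2 fold change 1.71, SE 0.31, adjusted p = 6.94e-06) and in C57BL/6J from 0.0412, 0.199 and 1.24 to 0.346, 0.731 and 1.47 CPM (log2 fold change 1.48, SE 0.41, adjusted p = 0.00424). Col6a6 rose in PWK/PhJ from 0.221, 0.315 and 0.508 to 0.686, 1.70 and 3.42 CPM (log2 fold change 2.12, SE 0.34, adjusted p = 7.11e-07), with groups apart, and fell in C57BL/6J from 0.672, 1.08 and 1.88 to 0.306, 0.489 and 1.24 CPM (log2 fold change -0.99, SE 0.28, adjusted p = 0.00406), with overlap. So in C57BL/6J the neighbours passed the test in opposite directions, although the Col6a5 call was lost in a fit of that strain alone (adjusted p = 0.0533).

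Col8a1 and Col8a2, chains of a short network collagen of vessel walls, rose in PWK/PhJ. Col8a1 went from 0.339, 0.555 and 0.772 to 0.837, 2.62 and 4.50 CPM (log2 fold change 1.99, SE 0.32, adjusted p = 4.98e-07) and Col8a2 from 0.0423, 0.0846 and 0.230 to 0.172, 0.319 and 0.371 CPM (log2 fold change 1.47, SE 0.40, adjusted p = 0.00316). Among the transmembrane collagens, Col23a1 rose in 4 strains and Col13a1 fell in 2. Col23a1 went in DBA/2J from 0.224, 0.363 and 0.460 to 0.476, 0.823 and 0.956 CPM (log2 fold change 1.16, SE 0.24, adjusted p = 1.83e-04), with groups apart. Its log2 fold change was 0.91 in C57BL/6J, 0.88 in 129S1/SvImJ and 0.60 in PWK/PhJ, where the call was lost in 3 of 9 alternatives and without any 1 of 7 mice. Col25a1 rose in DBA/2J from 0.221, 0.460 and 0.526 to 0.737, 1.05 and 1.95 CPM (log2 fold change 1.39, SE 0.30, adjusted p = 3.97e-04), without overlap.

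Col13a1, found at cell adhesions, fell in DBA/2J from 5.21, 5.64 and 6.16 to 2.90, 3.53 and 4.52 CPM (log2 fold change -0.69, SE 0.14, adjusted p = 2.07e-04) with groups apart, and in C57BL/6J with a log2 fold change of -0.59 (SE 0.11, adjusted p = 1.13e-05). Its log2 fold change was below 0 in all 7 strains. Col7a1, the collagen of the anchoring fibrils of skin, fell in CAST/EiJ from 1.51, 2.94 and 5.83 to 0.981, 1.65 and 2.33 CPM (log2 fold change -0.84, SE 0.18, adjusted p = 3.79e-04), a call lost in a fit of CAST/EiJ alone (adjusted p = 0.0537). Col26a1 fell there from 0.233, 0.483 and 1.35 to 0.0756, 0.336 and 1.26 CPM (log2 fold change -0.81, SE 0.29, adjusted p = 0.0355), a call kept in only 3 of 9 alternatives and lost without any 1 of 7 mice. Col17a1, a collagen of cell anchoring plaques in skin, had a log2 fold change of -1.13 (SE 0.43, adjusted p = 0.0521) in CAST/EiJ.

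The dependence of the diet effect on strain was tested directly. By an F test over the 7 strains the effect was unequal for 21 of 35 collagen genes (60%, against 37.5% of all genes). That in PWK/PhJ stood apart from the average of the 6 remaining strains for 17 genes (48.6% against 16.3%), 15 of them more positive and 2 more negative. The difference was 2.37 (SE 0.42, adjusted p = 3.20e-05) on the log2 scale for Col1a2, 2.30 (SE 0.36, adjusted p = 2.67e-06) for Col6a6, 2.28 (SE 0.59, adjusted p = 0.00382) for Col1a1 and 2.09 (SE 0.37, adjusted p = 2.71e-05) for Col3a1. It was 1.52 (SE 0.35, adjusted p = 0.00114) for Col8a1, 1.07 (SE 0.19, adjusted p = 2.67e-05) for Col4a1 and -0.98 (SE 0.25, adjusted p = 0.00365) for Col20a1. So the rises of PWK/PhJ passed the test against the average of the 6 remaining strains for type I, III, IV, VI and VIII chains. That average includes strains with little change, and PWK/PhJ was not tested against 129S1/SvImJ alone. Their Col1a1 log2 fold changes were 4.01 in PWK/PhJ and 3.44 in 129S1/SvImJ.

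In the other strains fewer genes passed this test. In DBA/2J 9 genes did (25.7% against 7.77% of all genes), 7 of them with a more negative effect, such as Col3a1 with -1.30 (SE 0.35, adjusted p = 0.0127) and Col1a2 with -1.26 (SE 0.37, adjusted p = 0.0228). Col25a1, with 1.70 (SE 0.35, adjusted p = 7.39e-04), was more positive there. The count for DBA/2J was 3 with no filter on low counts, 16 with sample quality weights and 5 to 11 when 1 mouse was left out. In CAST/EiJ 4 genes differed (11.4% against 14.5%), in C57BL/6J 2 (5.71% against 4.69%), in WSB/EiJ 2 (5.71% against 0.947%), in A/J 1 (2.86% against 0.466%) and in 129S1/SvImJ 1 (2.86% against 6.28%). In C57BL/6J these were Col5a3 with -1.25 (SE 0.16, adjusted p = 1.03e-07) and Col6a6 with -1.32 (SE 0.30, adjusted p = 0.00455), and in 129S1/SvImJ Col5a3 with 1.26 (SE 0.21, adjusted p = 5.17e-05). The type I and III genes of 129S1/SvImJ and C57BL/6J did not pass this test. These comparisons share the mice of all strains, and without both mice that stood apart the count was 11 in CAST/EiJ and 6 in C57BL/6J.

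Complete separation of the groups ranked the strains somewhat differently. Every WD mouse lay above every CD mouse for 14 collagen genes in PWK/PhJ (40%, against 6.59% of all genes), 14 in 129S1/SvImJ (40% against 9.23%) and 8 in A/J (22.9% against 4.14%). It did for 3 genes of DBA/2J (8.57% against 4.68%), for 2 of WSB/EiJ (5.71% against 2.5%) and for none of C57BL/6J (against 0.806%) or CAST/EiJ (against 0.952%), by a comparison that uses no model. C57BL/6J and CAST/EiJ have the largest groups, and each has a mouse that stood apart. Every WD mouse lay below every CD mouse for 3 genes in PWK/PhJ (8.57% against 6.02%), 2 in DBA/2J (5.71% against 2.6%), 1 in CAST/EiJ (2.86% against 1.28%) and none in C57BL/6J (against 0.973%), 129S1/SvImJ (against 7.18%), WSB/EiJ (against 1.86%) or A/J (against 3.94%).

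Summed levels of marker lists of other cell types were set beside these results. None of these lists holds a collagen gene, and their part in the collagen results was not tested. In PWK/PhJ the summed level of 10 portal fibroblast markers went from 22.0, 23.3 and 24.1 to 29.3, 47.3 and 57.8 CPM, that of 6 activated stellate cell or myofibroblast markers from 6.96, 9.23 and 12.2 to 18.9, 35.4 and 47.8 CPM, and that of 7 cholangiocyte markers from 93.2, 140 and 169 to 188, 403 and 560 CPM. In these 3 lists every WD mouse stood above every CD mouse. The sum of 10 stellate cell markers went from 131, 226 and 244 to 256, 260 and 304 CPM, also apart, a smaller shift in proportion. In 129S1/SvImJ the stellate cell sum was 298, 302 and 344 CPM on CD and 282, 301 and 312 CPM on WD, while the cholangiocyte sum went from 43.4, 60.6 and 69.7 to 80.8, 101 and 124 CPM and the portal fibroblast sum from 21.7, 25.4 and 32.5 to 31.3, 35.0 and 44.0 CPM. There the portal fibroblast ranges overlapped and the cholangiocyte ranges did not. Also apart in 129S1/SvImJ were the recruited macrophage sum, from 38.3, 49.5 and 56.2 to 87.3, 118 and 131 CPM, the activated stellate cell sum, from 12.4, 16.1 and 20.2 to 20.7, 23.2 and 25.7 CPM, and the large-vessel endothelial sum, from 61.6, 65.3 and 72.2 to 77.6, 90.4 and 103 CPM. The recruited macrophage sum of PWK/PhJ went from 16.8, 27.6 and 42.2 to 77.0, 107 and 147 CPM, apart as well. In CAST/EiJ the cholangiocyte sum went from 34.5, 46.3 and 62.8 to 65.4, 70.5 and 91.1 CPM without overlap. The CAST/EiJ portal fibroblast sum, 15.0, 18.4 and 25.7 CPM on CD and 16.9, 21.0 and 35.7 CPM on WD, overlapped. So did its activated stellate cell sum, at 29.2, 40.4 and 44.5 CPM and 34.2, 38.9 and 59.0 CPM.

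By the test of single genes, in PWK/PhJ 3 of 10 rose and 0 fell among stellate cell markers (median log2 fold change 0.19), 3 of 6 rose and 0 fell among activated stellate cell markers (1.64) and 5 of 10 rose and 0 fell among portal fibroblast markers (0.76), where the median of all genes was -0.01 and 15.1% of them rose and 14.5% fell. Among recruited macrophage markers 7 of 7 rose and 0 fell (1.82), among cholangiocyte markers 5 of 7 rose and 0 fell (1.00) and among Kupffer cell markers 1 of 6 rose and 0 fell (0.20). Of sinusoidal endothelial cell markers 0 of 8 rose and 1 fell (-0.09), of large-vessel endothelial cell markers 3 of 5 rose and 0 fell (0.86) and of hepatocyte markers 0 of 7 rose and 4 fell (-0.61). Of the activated stellate cell list, Acta2 did not pass in PWK/PhJ, at 0.47 (SE 0.23, adjusted p = 0.112), or in 129S1/SvImJ, at 0.43 (SE 0.24, adjusted p = 0.178). It passed in C57BL/6J, at 0.79 (SE 0.20, adjusted p = 0.00153). In 129S1/SvImJ 2 of 6 genes of that list rose, Lox and Timp1, and 0 fell, where 14.5% of all genes rose and 13.6% fell. Of portal fibroblast markers 5 of 10 rose there (median log2 fold change 0.755) and of cholangiocyte markers 1 of 7 (0.98), with 0 lower in both. Stellate cell markers had 2 of 10 higher and 1 lower, recruited macrophage markers 6 of 7 higher and 0 lower. Large-vessel endothelial cell markers had 4 of 5 higher and 0 lower, and hepatocyte markers 0 of 7 higher and 5 lower. In C57BL/6J the stellate cell sum was 236, 258 and 308 CPM on CD and 210, 272 and 312 CPM on WD, and the portal fibroblast sum 22.5, 28.5 and 128 CPM and 25.9, 44.6 and 136 CPM, with overlap in both. By the test of single genes, 2 of 10 stellate cell markers rose and 1 fell there. Of activated stellate cell markers 4 of 6 rose, of portal fibroblast markers 5 of 10, and none of either list fell. Of recruited macrophage markers 6 of 7 rose and 1 fell, of cholangiocyte markers 1 of 7 rose and 1 fell, and of hepatocyte markers 0 of 7 rose and 4 fell. Of all genes, 14.3% rose and 11.9% fell in C57BL/6J.

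Collagen chains need helpers to fold and be processed, and lists of these genes were counted with the same test. They share Lox and Timp1 with the activated stellate cell list. Of all genes tested, 15.1% rose and 14.5% fell in PWK/PhJ, 14.5% and 13.6% in 129S1/SvImJ, and 14.3% and 11.9% in C57BL/6J. Of 18 genes for folding and modifying chains that were tested, 9 rose and 2 fell in PWK/PhJ, 5 rose and 1 fell in 129S1/SvImJ, and 9 rose and 1 fell in C57BL/6J. Of 12 genes for propeptide removal and cross-linking, 7 rose and 1 fell in PWK/PhJ, 6 rose and 1 fell in 129S1/SvImJ, and 6 rose and 2 fell in C57BL/6J. Of 9 collagen receptors, 7, 3 and 3 rose. Of 10 genes for breakdown and its inhibitors, 8 rose in PWK/PhJ, 4 rose and 1 fell in 129S1/SvImJ, and 5 rose and 1 fell in C57BL/6J. In A/J, CAST/EiJ, DBA/2J and WSB/EiJ at most 3 genes of any of these lists rose. The median log2 fold changes in PWK/PhJ were 0.22, 0.79, 0.66 and 1.40 in this order. P4ha3, Tll2 and Gp6 had too few counts to be tested.

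The cross-linking enzyme Lox, a lysyl oxidase, went in PWK/PhJ from 0.570, 0.659 and 0.772 to 2.64, 4.54 and 7.13 CPM, a log2 fold change of 2.81 (SE 0.41, adjusted p = 7.50e-08), and in 129S1/SvImJ from 0.0851, 0.231 and 0.345 to 1.24, 1.39 and 1.48 CPM, one of 2.71 (SE 0.59, adjusted p = 2.33e-04). Groups were apart in both strains. Its relatives Loxl1 and Loxl2 rose too, with 2.51 (SE 0.38, adjusted p = 1.87e-07) for Loxl1 in PWK/PhJ and 1.23 (SE 0.43, adjusted p = 0.024) in 129S1/SvImJ, and 1.33 (SE 0.28, adjusted p = 1.32e-04) for Loxl2 in 129S1/SvImJ. Adamts2, which cuts the end from type I procollagen, had 2.12 (SE 0.27, adjusted p = 1.03e-09) in PWK/PhJ and 0.82 (SE 0.29, adjusted p = 0.0254) in 129S1/SvImJ. Of the folding helpers, Serpinh1, a chaperone of collagen, had 1.48 (SE 0.22, adjusted p = 1.25e-07) in 129S1/SvImJ and 1.00 (SE 0.20, adjusted p = 3.62e-05) in PWK/PhJ, while Fkbp10, P3h2 and Plod2, which fold or hydroxylate chains, had 1.45 (SE 0.29, adjusted p = 5.38e-05), 1.31 (SE 0.25, adjusted p = 2.61e-05) and 1.27 (SE 0.25, adjusted p = 3.67e-05) in PWK/PhJ. Those 3 genes had 0.69 (SE 0.30, adjusted p = 0.0742), 0.27 (SE 0.23, adjusted p = 0.418) and 0.60 (SE 0.33, adjusted p = 0.172) in 129S1/SvImJ and did not pass there, and the difference between the strains was not tested. Colgalt2, which adds galactose to chains, rose in 129S1/SvImJ with 0.70 (SE 0.18, adjusted p = 0.00189) and fell in PWK/PhJ with -0.68 (SE 0.11, adjusted p = 4.10e-07), and the collagen-binding matrix protein Sparc had 0.54 (SE 0.15, adjusted p = 0.00403) in 129S1/SvImJ.

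Receptors and breakdown genes rose from low levels. Mrc2, which takes up collagen fragments, had log2 fold changes of 2.88 (SE 0.41, adjusted p = 3.23e-08) in PWK/PhJ and 1.31 (SE 0.36, adjusted p = 0.00328) in 129S1/SvImJ. The receptor kinase Ddr1 had 1.87 (SE 0.34, adjusted p = 1.12e-05) and the integrin chain Itga2 1.80 (SE 0.37, adjusted p = 6.58e-05) in PWK/PhJ, and Itga2 had 1.61 (SE 0.54, adjusted p = 0.0171) and the inhibitory receptor Lair1 1.13 (SE 0.20, adjusted p = 1.19e-05) in 129S1/SvImJ. Timp1, an inhibitor of matrix proteases, went in PWK/PhJ from 0.190, 0.283 and 0.362 to 2.00, 6.75 and 11.5 CPM, a log2 fold change of 4.44 (SE 0.56, adjusted p = 1.07e-09), and in 129S1/SvImJ it had 4.59 (SE 0.78, adjusted p = 3.49e-06). The collagenases Mmp13 and Mmp8 had 3.94 (SE 0.48, adjusted p = 3.41e-10) and 4.24 (SE 0.61, adjusted p = 3.92e-08) in PWK/PhJ, and Mmp13 and the gelatinase Mmp9 had 5.11 (SE 0.74, adjusted p = 1.05e-07) and 1.92 (SE 0.35, adjusted p = 1.42e-05) in 129S1/SvImJ. On CD, Mmp13 was at 0, 0.0631 and 0.0826 CPM in 129S1/SvImJ and Mmp8 at 0, 0.0307 and 0.0805 CPM in PWK/PhJ. The sizes of these changes thus rest on very few CD counts. The summed level of the breakdown list went in PWK/PhJ from 48.8, 67.5 and 73.1 to 76.0, 112 and 157 CPM, with groups apart. In 129S1/SvImJ that sum was 70.5, 78.3 and 87.2 CPM on CD and 69.2, 71.0 and 76.7 CPM on WD, and the cross-linking sum 147, 167 and 192 CPM and 134, 142 and 161 CPM. So in 129S1/SvImJ the medians of both sums were lower on WD, with overlap, although more single genes of these lists rose than fell.

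Strains differed in collagen levels already on CD. By an F test over the 7 strains all 35 genes differed on CD, where 93.7% of all genes did. When 10 counts were required in every mouse 22 differed, but that filter left fewer than 35 collagen genes to test. Set against the average of the 6 remaining strains, 27 genes differed in C57BL/6J (77.1%, against 57.9% of all genes), 18 in CAST/EiJ (51.4% against 63.9%) and 16 in PWK/PhJ (45.7% against 58.6%). There were 14 each in A/J (40% against 36.7%), WSB/EiJ (40% against 49.2%) and 129S1/SvImJ (40% against 44.2%), and 13 in DBA/2J (37.1% against 42.3%). The share was thus clearly above that of all genes only in C57BL/6J, where 17 collagen genes were higher and 10 lower. Median Col1a1 levels on CD lay between 2.17 and 8.00 CPM, with C57BL/6J highest at a difference of 2.03 (SE 0.34, adjusted p = 3.82e-07). The part of the unmapped reads in levels between strains was not tested.

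**Figure D5:**
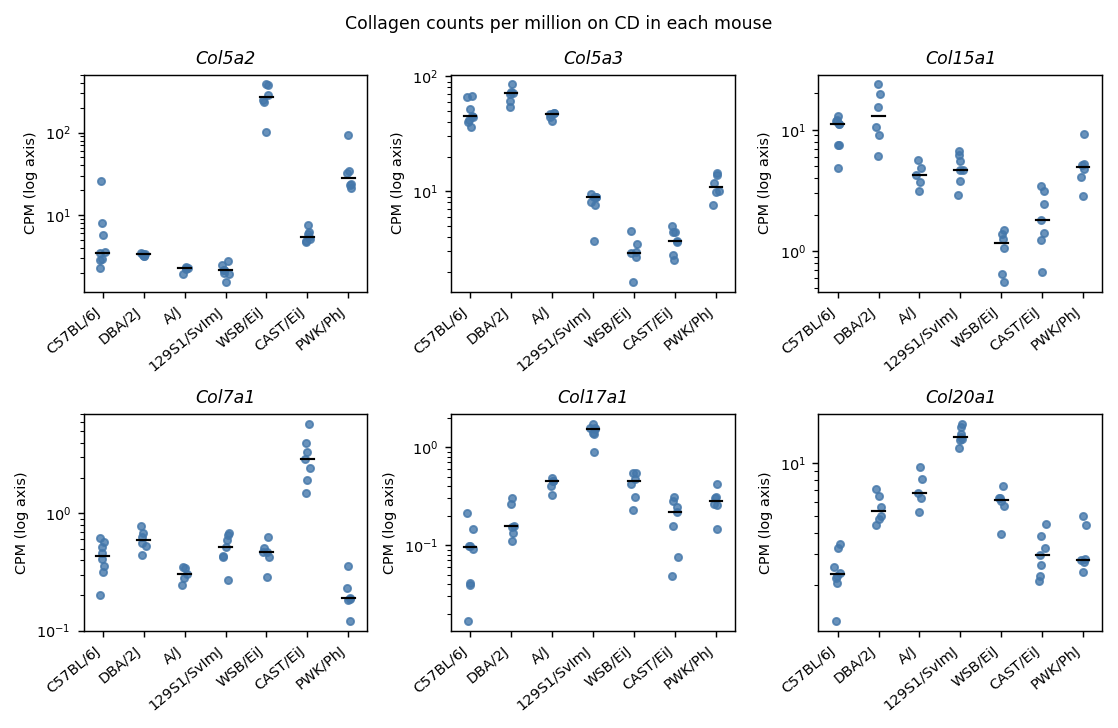
CPM (log axis) on CD of Col5a2, Col5a3, Col15a1, Col7a1, Col17a1 and Col20a1 in each mouse, by strain, with a black line at the median of the group. Col5a2 lies highest in WSB/EiJ and next in PWK/PhJ, Col5a3 is high in C57BL/6J, DBA/2J and A/J, Col7a1 is highest in CAST/EiJ, and Col17a1 and Col20a1 are highest in 129S1/SvImJ.

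Col5a2 had the widest range. Its CD levels were 102, 268 and 383 CPM in WSB/EiJ and 21.5, 28.1 and 93.4 CPM in PWK/PhJ as lowest, median and highest, against medians of 2.19 to 5.39 CPM in the other strains. WSB/EiJ exceeded the average of the 6 remaining strains by 5.67 (SE 0.26, adjusted p = 6.82e-34) on the log2 scale and PWK/PhJ by 2.24 (SE 0.26, adjusted p = 1.54e-12), and every WSB/EiJ mouse stood above every CD mouse of the other strains. Among the low strains 129S1/SvImJ differed by -2.35 (SE 0.44, adjusted p = 5.46e-06) and A/J by -2.29 (SE 0.51, adjusted p = 1.61e-04). Col3a1, which lies tail to tail with it at 24614 bases, had 14.7, 16.3 and 21.9 CPM in WSB/EiJ on CD, within the range of the other strains. Its partner chain Col5a1 had 10.3, 12.8 and 13.2 CPM there, the highest median of any strain, but the medians of the other strains lay close by, at 8.38 to 10.9 CPM.

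Col5a3 split the strains differently. Its levels on CD were 54.2, 71.0 and 85.1 CPM in DBA/2J, 41.3, 46.7 and 48.2 CPM in A/J and 36.2, 44.8 and 68.1 CPM in C57BL/6J, and 1.63, 2.92 and 4.54 CPM in WSB/EiJ. The lowest mouse of the 3 high strains, at 36.2 CPM, stood above the highest of the 4 low strains, at 14.5 CPM. Against the average of the 6 remaining strains DBA/2J differed by 2.61 (SE 0.13, adjusted p = 8.13e-31) and WSB/EiJ by -2.71 (SE 0.24, adjusted p = 1.66e-16). Col15a1 was also highest in DBA/2J, at 6.09, 13.1 and 23.7 CPM with a difference of 1.88 (SE 0.21, adjusted p = 3.31e-12), and lowest in WSB/EiJ, at 0.558, 1.16 and 1.50 CPM with -2.37 (SE 0.45, adjusted p = 5.80e-06). For Col15a1 the range of DBA/2J overlapped that of C57BL/6J, and the range of WSB/EiJ that of CAST/EiJ.

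Several low collagen genes stood out in 1 strain on CD. In CAST/EiJ, Col7a1 had 1.51, 2.94 and 5.83 CPM, a difference of 2.85 (SE 0.16, adjusted p = 5.48e-29), against medians of 0.189 to 0.594 CPM elsewhere, with no overlap. Col26a1 had 9 to 55 counts per CAST/EiJ mouse on CD and 0 to 6 counts in every CD mouse of the other strains. In 129S1/SvImJ, Col17a1 had 0.886, 1.51 and 1.73 CPM, a difference of 2.65 (SE 0.18, adjusted p = 2.44e-23), and Col20a1 had 12.2, 14.2 and 16.9 CPM, a difference of 1.80 (SE 0.10, adjusted p = 1.17e-27), both above every CD mouse of the other strains. In PWK/PhJ, Col9a3 had 0.551, 0.757 and 0.993 CPM, with a difference of 1.91 (SE 0.21, adjusted p = 3.65e-13) and no overlap with the others.

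Other genes were low in 1 strain. Col4a6 had 0 counts in all 5 A/J mice on CD, which allows up to 0.0647 to 0.0693 CPM in a mouse at 3 counts, and 0 or 1 count in each A/J mouse on WD, against medians of 0.154 to 0.340 CPM on CD in the other strains. Col25a1 had 0 to 3 counts per WSB/EiJ mouse on CD against medians of 8 to 32 counts elsewhere. In C57BL/6J, Col6a5 had 0.0412, 0.199 and 1.24 CPM, a difference of -2.28 (SE 0.35, adjusted p = 4.84e-08), and Col17a1 had 0.0168, 0.0952 and 0.211 CPM, a difference of -2.12 (SE 0.32, adjusted p = 1.74e-08). Both C57BL/6J ranges overlapped those of other strains, and for Col6a5 the highest value was that of CD mouse 2.

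The make-up of the family shifted on WD. Basement membrane genes, Col18a1 above all, gave a median of 62.2% to 86.3% of the summed collagen CPM in each group. Fibrillar genes gave 7.79%, 8.99% and 11.3% of the summed collagen CPM in PWK/PhJ on CD as lowest, median and highest, and 14.1%, 24.0% and 29.6% on WD. In 129S1/SvImJ they gave 6.55%, 7.48% and 9.16% on CD and 11.1%, 14.2% and 16.4% on WD. Neither pair of ranges overlapped. A/J was apart too, with 7.44%, 8.12% and 8.77% on CD and 9.61%, 10.5% and 11.8% on WD. The ranges of the remaining strains overlapped, although the medians of C57BL/6J and CAST/EiJ moved by more than those of A/J. In C57BL/6J the share was 9.62%, 12.8% and 27.6% on CD and 12.6%, 23.7% and 38.6% on WD, in CAST/EiJ 7.69%, 10.2% and 15.4% and 12.3%, 17.9% and 30.2%, and in DBA/2J 10.9%, 12.0% and 14.8% and 13.5%, 14.4% and 17.7%. In WSB/EiJ the share was 11.9%, 18.1% and 24.6% on CD and 12.6%, 18.3% and 22.0% on WD, with overlap, and Col5a2 gave most of it. The summed fibrillar level of CAST/EiJ had a median of 119.9 CPM on CD and 209.8 CPM on WD. By the medians Col27a1, whose levels are given above, made up most of that sum on both diets. Col1a1, Col1a2 and Col3a1 did not pass the test in CAST/EiJ.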

How the data were processed

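The deposited table holds whole-number read counts per gene for 53465 genes in 93 mice, made by the authors before deposit by aligning the reads of every strain to GRCm38/mm10 with STAR 2.7.1a, per the labels and the submitters' processing notes. The annotation release and the strand setting of the counting are not given in the sources used here, and 4 summary lines (19.9% to 34.7% of reads) were left out. Each mouse is a separate animal and counts as 1 replicate, grouped by the strain and diet in its label.

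Genes kept by edgeR filterByExpr (minimum count of 10, 19110 genes) were scaled by TMM and fitted with limma-voom (limma 3.58.1, edgeR 4.0.16, R 4.3.3) with a mean for each of 14 groups. Every adjusted p is Benjamini-Hochberg over all genes tested, two-sided, with a threshold of 0.05. The method was tested on simulated data. Contrasts were WD minus CD in each strain, that effect in 1 strain against the mean of the other 6, the same for CD levels, and F tests over strains. Diet and CD contrasts share the CD mice. Exon lengths and coordinates come from GENCODE (GRCm38), promoters from RefSeq (GRCm38.p6). Read depth was 40020424 to 49894856 counts on genes, and counting limits at 0 counts cover counting error only.

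Alternatives were edgeR's quasi-likelihood test, DESeq2 1.42.0, upper-quartile normalization, no count filter, 10 counts in every mouse, cohort or RIN as a term, a fit per strain, sample quality weights and leaving out each of the 93 mice. Leaving out both mice that stood apart, C57BL/6J CD mouse 2 and CAST/EiJ WD mouse 3, was chosen after seeing the data. That fit kept C57BL/6J WD mouse 3 and PWK/PhJ CD mouse 5. The members, gene lists and tests were chosen with earlier results of these data known. Genes named with values were, by rule, those called in the most strains in each class, the largest changes of each strain, genes called in opposite directions, the largest CD departures, the largest pathway changes in PWK/PhJ and 129S1/SvImJ, and their neighbours in a collagen pair. Col5a1, Col8a1, Col8a2 and Col24a1 fall outside it and complete the account of the 35. Figures used Python 3.11.15 and matplotlib 3.10.9.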

Additional observations from a re-analysis of the deposited data

Results flagged for a closer look

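Single mice stood far from their group in 35 of 224 pairs of a gene and a group, over 16 collagen genes, by the gap to the nearest other mouse relative to the range of the group. Chance alone marks about 5% of such pairs, and the genes are not independent, since 1 mouse can stand out for many. C57BL/6J CD mouse 2 stood highest for 11 genes, with Col1a1 at 89.4 CPM, Col1a2 at 71.2, Col3a1 at 181, Col4a1 at 142, Col4a2 at 77.9 and Col6a3 at 71.5 CPM. In the same mouse Col4a5 was at 11.3, Col12a1 at 7.63, Col16a1 at 7.93, Col6a5 at 1.24 and Col23a1 at 0.79 CPM. CAST/EiJ WD mouse 3 stood highest with Col1a1 at 74.8 CPM, Col1a2 at 61.8, Col3a1 at 105, Col4a5 at 2.94, Col12a1 at 2.65 and Col16a1 at 3.08 CPM. C57BL/6J WD mouse 3 did so with Col4a5 at 10.1 and Col6a3 at 92 CPM.

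The other mice stood out for 1 to 3 genes each. A/J CD mouse 1 was high for Col1a1 at 2.77, Col3a1 at 14.4 and Col4a5 at 1.09 CPM, A/J CD mouse 2 low for Col16a1 at 1.03 CPM and A/J WD mouse 2 high for it at 3.93 CPM. CAST/EiJ CD mouse 7 was high for Col1a1 at 7.78 and Col3a1 at 22.4 CPM, and Col23a1 stood at 1.06 CPM in CAST/EiJ WD mouse 7. Col6a3 stood at 7.99 CPM in CAST/EiJ CD mouse 4, where the nearest mouse had 7.05 CPM. Col1a2 was at 18.6 CPM in WSB/EiJ CD mouse 3, Col6a5 at 2.75 CPM in WSB/EiJ WD mouse 4, Col12a1 at 5.52 CPM in DBA/2J WD mouse 6 and Col6a6 at 1.88 CPM in C57BL/6J CD mouse 6. Col5a3 was low in 129S1/SvImJ CD mouse 7 at 3.71 CPM, Col14a1 low in PWK/PhJ CD mouse 5 at 28.3 CPM, and Col12a1 high in PWK/PhJ CD mouse 3 at 1.23 CPM.

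The diet effect differed over the 7 strains by the limma F test for 14 of the 16 genes, which were themselves named for passing the diet test in the most strains of each class. Over the whole family it did for 21 of 35 (60%, against 37.5% of all genes). The adjusted p was 2.28e-10 for Col5a3, 4.78e-07 for Col6a6, 9.53e-07 for Col1a2, 4.49e-06 for Col4a1 and 6.76e-06 for Col3a1. It was 2.32e-04 for Col6a3, 2.74e-04 for Col1a1, 4.67e-04 for Col4a2, 5.85e-04 for Col16a1 and 8.50e-04 for Col14a1. For Col20a1 it was 0.00146, for Col12a1 0.00466, for Col4a5 0.00712 and for Col23a1 0.0417.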

How the results depend on the processing

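No collagen gene that passed the test changed direction under any alternative, and the counts of genes that rose in PWK/PhJ, 129S1/SvImJ and C57BL/6J stayed within 1.5 times, except in C57BL/6J, where a separate fit for each strain gave 8. Counts elsewhere are small and moved more. By edgeR and DESeq2 alike, 3 genes were lower in C57BL/6J, 5 higher in A/J, 4 higher in CAST/EiJ, 0 lower in WSB/EiJ and 2 differed in diet effect in 129S1/SvImJ, and DESeq2 gave 2 higher in WSB/EiJ and 7 with a differing diet effect in CAST/EiJ. Separate fits gave 3 lower in C57BL/6J, 5 higher in DBA/2J, 10 higher and 1 lower in A/J, 4 higher and 0 lower in WSB/EiJ and 2 lower in CAST/EiJ. Sample quality weights gave 4 higher in DBA/2J, 9 higher and 1 lower in A/J, 3 lower in 129S1/SvImJ, and 4 higher and 2 lower in WSB/EiJ, with diet effects that differed for 6 genes in C57BL/6J, 16 in DBA/2J, 7 in 129S1/SvImJ, 4 in WSB/EiJ and 9 in CAST/EiJ. Upper-quartile normalization gave 0 lower in 129S1/SvImJ, where it split all genes called into 3352 higher and 1643 lower, against 2766 and 2593 with TMM. Requiring 10 counts in every mouse, which tests fewer genes, gave 1 higher in DBA/2J, 0 lower in 129S1/SvImJ, 2 higher in WSB/EiJ and, for CD levels, 22 by the F test, 11 in CAST/EiJ, 9 in A/J and 8 in DBA/2J. With no filter the diet effect differed for 3 genes in DBA/2J, 1 in WSB/EiJ and 2 in CAST/EiJ, and CD levels for 8 in DBA/2J. Cohort as a term gave 2 higher in WSB/EiJ. Without both mice that stood apart, 3 were lower in C57BL/6J, 5 higher in A/J, 2 lower in 129S1/SvImJ and 3 higher in WSB/EiJ, and diet effects differed for 6 in C57BL/6J, 2 in 129S1/SvImJ and 11 in CAST/EiJ. Other than by construction, the cause was not tested.

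Leaving out 1 mouse at a time gave 2 to 5 lower in C57BL/6J (2 without WD mouse 4), 1 to 3 lower in DBA/2J, 2 to 5 higher in A/J (2 without CD mouse 2 or WD mouse 2, 5 without C57BL/6J CD mouse 2), 0 to 1 lower in A/J (1 without WD mouse 3), 0 to 2 lower in 129S1/SvImJ, 1 to 2 higher and 0 to 1 lower in WSB/EiJ, and 3 to 7 lower in CAST/EiJ (7 without C57BL/6J WD mouse 3). Diet effects then differed for 2 to 5 genes in C57BL/6J, 5 to 11 in DBA/2J, 1 to 2 in 129S1/SvImJ, 0 to 3 in WSB/EiJ (0 without WD mouse 2) and 2 to 9 in CAST/EiJ, with the highest value of all but 129S1/SvImJ reached without C57BL/6J CD mouse 2. CD levels in DBA/2J differed for 7 to 15 genes (7 without DBA/2J CD mouse 2). The counts that rose ran from 18 to 20 in PWK/PhJ, 13 to 16 in 129S1/SvImJ and 13 to 15 in C57BL/6J. No paired analysis was possible because the labels give no replicate number shared between groups. Genes under about 1 CPM rest on few counts, and small changes in them were not detectable at this depth.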
